A study of Mus musculus with 14 samples.

Results

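The genes described here are 10 genes of the capillary endothelium and of vascular growth factor signalling, chosen by gene symbol: Pecam1, Cdh5, Esam, Kdr, Flt1, Tek, Tie1, Vegfa, Vegfb and Angpt1. They were represented by 14 of the 55681 probes on the array, and 13 of these probes, covering 10 of 10 genes, passed the filter on dim probes, which asked that all arrays of some group be well above background. The fit across all genes held 14163 genes.

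The study measured gene expression in skeletal muscle of mice with 1-colour Agilent arrays, 1 array per sample and 14 arrays in all. The groups were EDL of Ts1Cje mice (3 arrays), EDL of WT mice (3), soleus of Ts1Cje mice (4) and soleus of WT mice (4). The Ts1Cje mouse, used to model Down syndrome, has an additional copy of the distal part of chromosome 16, on a C57BL/6 background, and the WT animals were disomic C57BL/6 littermates. The EDL (extensor digitorum longus) is a fast-twitch hind limb muscle, the soleus is slow-twitch. No group was given a treatment in the labels, and age and sex are not given in the sources used here. The labels describe the samples of a muscle as pairs of littermates but do not say whether an EDL and a soleus came from the same animal, and the p-values below measure only the spread between these samples.

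Capillaries of skeletal muscle are tubes of endothelial cells joined by adhesion molecules and partly covered by pericytes. Muscle fibres and other cells secrete VEGF ligands, which act on the receptors KDR and FLT1 of the endothelium, and mural cells secrete angiopoietin 1, which acts on the receptor TEK and steadies the vessel. Slow, oxidative muscles such as the soleus are known to hold more capillaries per fibre than fast muscles.

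Levels are given as log2 of the background-subtracted spot intensity relative to the 75th percentile of the array, so that 0 is the level of a probe at that percentile and 1 is a doubling. A probe's level depends on its sequence, so levels are compared between groups and not between genes. A gene with several kept probes is represented by its brightest. A gene was called when its adjusted p was under 0.05 in limma with Benjamini-Hochberg adjustment over all 14163 genes, and only called genes are said to have risen or fallen. On each array 41.3% to 52.9% of probes were well above background. The 6 EDL arrays and soleus Ts1Cje replicate 1 were on slide 1 and the other 7 soleus arrays on slide 2. Muscle and slide thus nearly coincide, and in WT mice they coincide fully.

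The probes for the closely related receptors TEK and TIE1 are shown because what these genes' values measure depends on how far the probes differ. The Tek probe lies at chr4:94540624-94540683 (plus strand, mm9, the build of the probe positions in the file headers) and the Tie1 probe at chr4:118144132-118144191 (minus strand). Set against each other at an offset of 3 bases, they are identical at 39 of 57 aligned bases (68.4%), and capitals mark the shared bases. The exon or UTR of each probe was not looked up, since no mm9 annotation was used.
Tek probe: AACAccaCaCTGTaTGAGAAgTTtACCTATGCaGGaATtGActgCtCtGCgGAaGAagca
Tie1 probe: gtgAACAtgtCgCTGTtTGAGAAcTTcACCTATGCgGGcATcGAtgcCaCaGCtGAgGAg

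Between Ts1Cje and WT, 0 of the 10 genes were called in the EDL and 0 of 10 in the soleus. Among all genes 0.00706% (1 gene) were called in EDL samples and 0.247% (35 genes) in soleus samples. In the EDL the log2 changes of the 10 genes lay between -0.28 (Angpt1) and 0.28 (Kdr), 5 above and 5 below 0, with a median of -0.03, against -0.00 over all genes. None of the 10 had an unadjusted p under 0.05, against 2.88% of all genes, and the groups overlapped for each of them, against 5.6% of genes without overlap. The standard errors were 0.13 to 0.29, and the 95% intervals of the EDL changes reached from -0.86 to 0.86, and the one that reached farthest, that of Kdr, held changes of up to 1.82-fold. In the soleus the changes lay between -0.33 (Tek) and 0.53 (Cdh5), 6 above and 4 below 0, with a median of 0.10, against 0.07 over all genes. The unadjusted p was under 0.05 for 1 of the 10 (Cdh5), against 13.6% of all genes.

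Between EDL and soleus, by contrast, 3 of the 10 genes differed in Ts1Cje mice and 1 of 10 in WT mice, all of them lower in the EDL. Angpt1, the angiopoietin that activates TEK, was lower in both genotypes, and Cdh5 and Tie1 were called in Ts1Cje mice. Among all genes 30% were called in Ts1Cje mice, 12.4% as lower in the EDL (41.9% had an unadjusted p under 0.05, as did 4 of the 10), and 29.8% in WT mice, 9.77% as lower in the EDL, and against these shares the counts are no result about the 10 genes as a group. Tests that asked whether a genotype effect differed between the muscles called 0 of the 10, and 0% of all genes, with adjusted p from 0.988 upward.

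**Figure D1:**
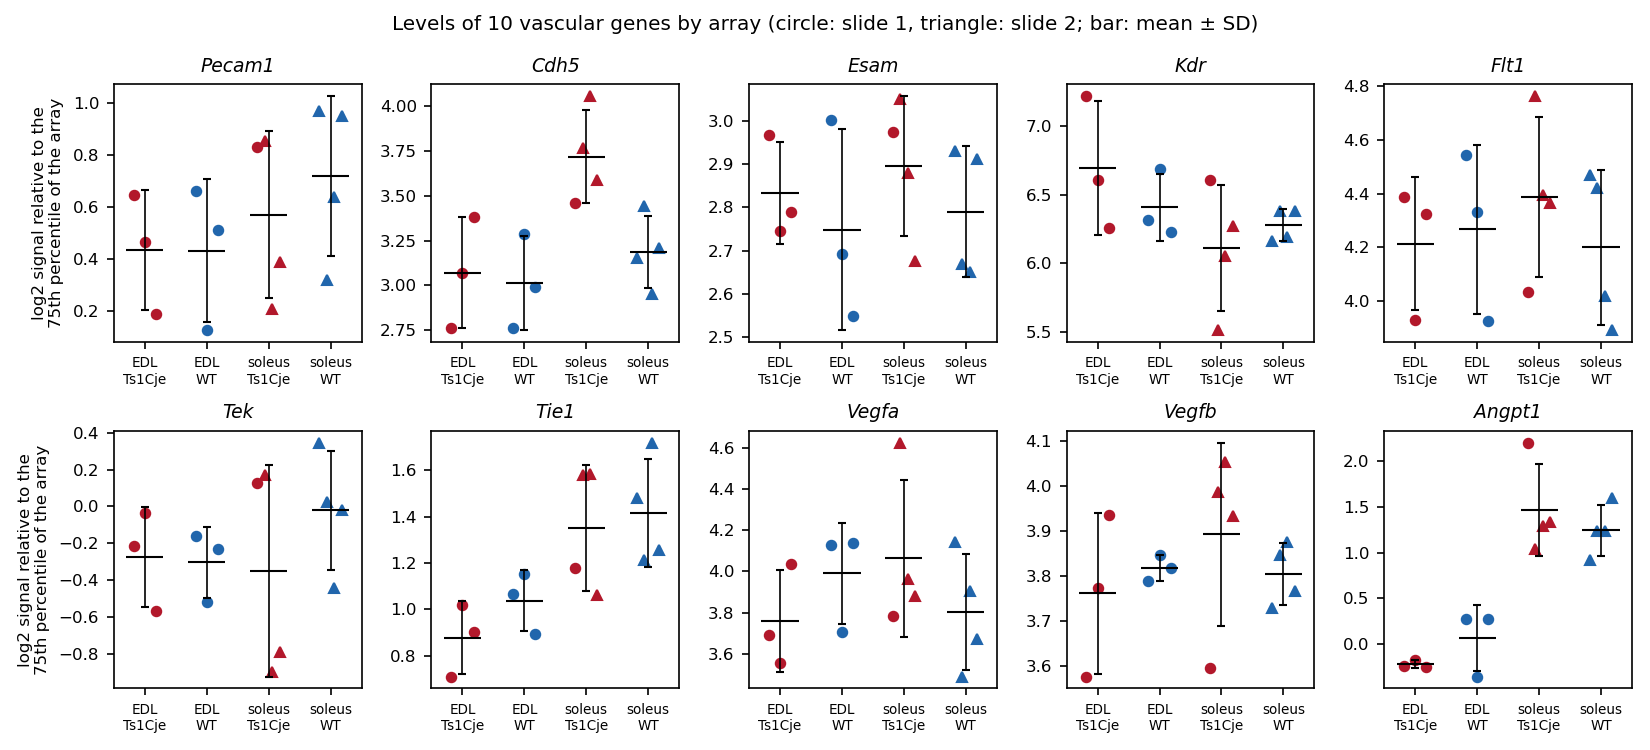
Level of each of the 10 genes on every array (log2, relative to the array's 75th percentile), by group. Circles are arrays of slide 1, triangles of slide 2, and bars give the mean ± SD; Angpt1 levels on all 8 soleus arrays lie above all 6 EDL arrays, while most other genes overlap across the 4 groups. Of all genes on the array, 35.4% did not overlap between the muscles in Ts1Cje and 38.9% in WT mice.

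Among the adhesion genes, Cdh5 encodes VE-cadherin, the cadherin of endothelial junctions. Cdh5 levels were 2.76, 3.07 and 3.38 in EDL Ts1Cje, 2.76, 3.29 and 2.99 in EDL WT, 3.46, 3.77, 4.06 and 3.59 in soleus Ts1Cje and 3.15, 3.44, 2.95 and 3.21 in soleus WT. The 4 soleus Ts1Cje arrays were the highest of the 14, and they did not overlap with soleus WT, as for 8.4% of all genes in that comparison. The change in the soleus was 0.53 ± 0.17 (log2, SE), 1.44-fold, with an interval of 0.16 to 0.90 and an unadjusted p of 0.00921 in the limma fit, but an adjusted p of 0.281. Over both muscles the mean genotype change of Cdh5 was 0.29 ± 0.13 (SE, adjusted p = 0.52 in limma), and among the 10 genes 0 were called for this mean, against 0.289% of all genes. In the EDL the change was 0.06 ± 0.20 (SE), and the difference between the muscles, -0.47 ± 0.26 (SE), was not called (adjusted p = 0.988 in limma).

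In Ts1Cje mice Cdh5 was 1.57-fold lower in the EDL than in the soleus, with a log2 change of -0.65 ± 0.19 (SE, adjusted p = 0.0203 in limma), and the groups did not overlap, as for 35.4% of genes. With slide as a block this change was -0.39 (adjusted p = 0.386), a value that rests on the single soleus array of slide 1. Leaving out single arrays ended the call in 3 of 7 fits: without EDL Ts1Cje replicate 1 (adjusted p = 0.103), EDL Ts1Cje replicate 2 (0.0524) or soleus Ts1Cje replicate 3 (0.0573). It was also lost with no filter on dim probes (0.0504). In WT mice the change was -0.17 and was not called.

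Pecam1 encodes CD31, an adhesion molecule of endothelial cells, platelets and some leukocytes, and Esam an endothelial adhesion molecule of tight junctions. Pecam1 levels ranged from 0.13 to 0.97 over the 14 arrays and Esam levels from 2.55 to 3.05. Neither gene was called in any comparison. The changes of Pecam1 were 0.00 in the EDL and -0.15 in the soleus by genotype, and -0.14 in Ts1Cje and -0.29 in WT mice between EDL and soleus. Esam was the steadier of these adhesion genes, with changes from -0.06 to 0.11 in the same comparisons.

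Kdr encodes VEGF receptor 2, the main signalling receptor for VEGFA. On its bright probe, at chr5:76330395-76330454 (minus strand, mm9), levels were 7.22, 6.60 and 6.26 in EDL Ts1Cje, 6.31, 6.68 and 6.23 in EDL WT, 6.60, 5.51, 6.05 and 6.27 in soleus Ts1Cje and 6.16, 6.38, 6.19 and 6.38 in soleus WT. The soleus Ts1Cje arrays held both a level above all soleus WT arrays and the lowest level of the 14, and all groups overlapped. The change between EDL and soleus in Ts1Cje mice was 0.58 ± 0.25 (SE, adjusted p = 0.0959 in limma) and was not called. It was called without EDL Ts1Cje replicate 3 (0.80, adjusted p = 0.0423) or without soleus Ts1Cje replicate 1 (0.75, adjusted p = 0.0372).

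The dim Kdr probe, at chr5:76329309-76329368, gave the opposite direction. Its levels were 2.26, 2.59 and 2.78 in EDL Ts1Cje, 2.38, 3.02 and 2.97 in EDL WT, 3.46, 2.87, 3.10 and 3.26 in soleus Ts1Cje and 2.58, 3.37, 3.31 and 3.06 in soleus WT. All 4 soleus Ts1Cje arrays lay above all 3 EDL Ts1Cje arrays, with a change of -0.63 (adjusted p = 0.0516 in limma over 25182 probes, of which 27% were called). With both probes averaged, the change of Kdr in Ts1Cje mice was -0.02, so these probes give no direction for the gene between the muscles.

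Flt1 encodes VEGF receptor 1, which binds VEGFA and VEGFB and in its soluble form traps them. Of its 3 probes 2 were kept, and the third was well above background on 8 of the 14 arrays. On the brightest, at chr5:148373791-148373850 (minus strand), levels ranged from 3.89 to 4.76 over all arrays, and the changes by genotype were -0.05 in the EDL and 0.19 in the soleus samples. Between EDL and soleus they were -0.17 in Ts1Cje and 0.07 in WT mice. Flt1 was not called in any comparison. Its kept probes, 73081 bases apart, moved together over the 14 arrays once group means were removed (Pearson r = 0.85, permutation p adjusted over 3 pairs = 0.0068; Spearman rho = 0.89, adjusted permutation p = 0.000289), and r was 0.80 without the 2 arrays farthest from the median.

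The kept pairs of Kdr and Vegfa had no correlation that passed the test. The Kdr probes, 1086 bases apart, had r = 0.20 (adjusted permutation p = 0.547) and rho = 0.31 (0.489), with r = 0.31 without the 2 farthest arrays. The Vegfa probes had r = -0.24 (adjusted permutation p = 0.547) and rho = -0.23 (0.498), with r = 0.15 without the 2 farthest. Arrays were permuted within groups in these 3 tests, which were two-sided. A statement on Kdr or Vegfa therefore holds for the named probe.

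**Figure D2:**
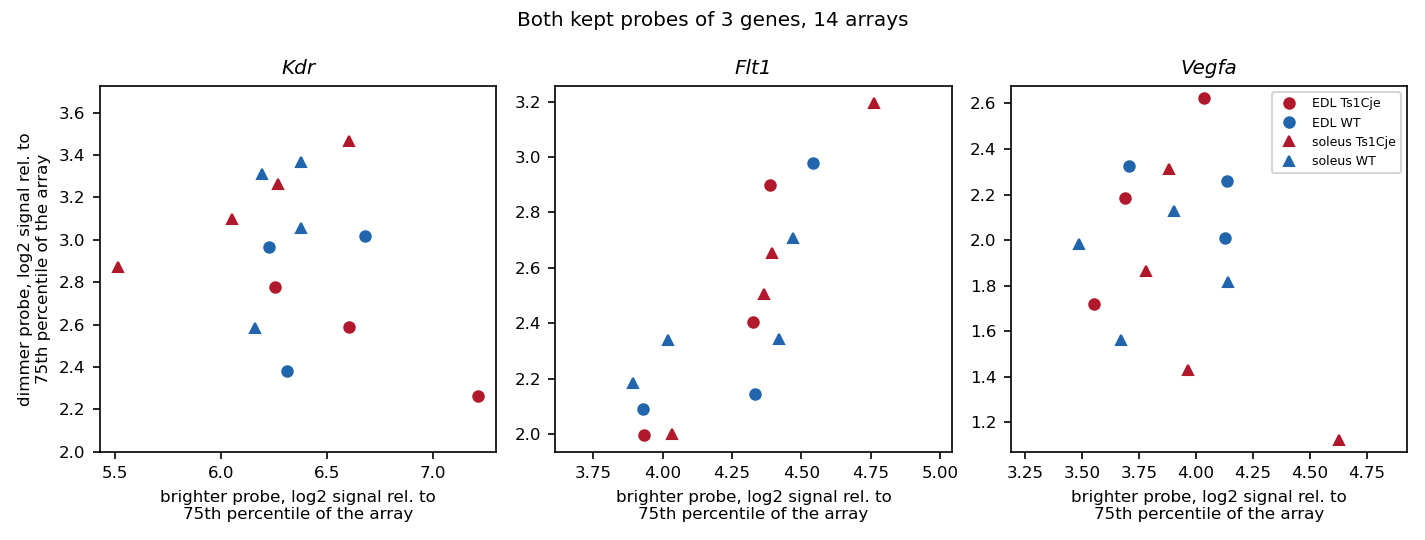
Level of the second kept probe against the brightest kept probe of Kdr, Flt1 and Vegfa on the 14 arrays (log2, relative to the 75th percentile). Circles are EDL and triangles soleus, red Ts1Cje and blue WT; the Flt1 probes correlate (r = 0.85 after group means are removed), against r = 0.20 for Kdr and -0.24 for Vegfa.

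Tie1 encodes the orphan receptor that pairs with TEK and modulates its signalling. Tie1 levels were 0.71, 1.02 and 0.90 in EDL Ts1Cje, 1.06, 1.15 and 0.89 in EDL WT, 1.18, 1.58, 1.59 and 1.06 in soleus Ts1Cje and 1.48, 1.21, 1.72 and 1.26 in soleus WT. In both genotypes every EDL array lay below every soleus array. Among all genes, 35.4% did not overlap between the muscles in Ts1Cje mice and 38.9% in WT mice. In Ts1Cje mice Tie1 was 1.39-fold lower in the EDL, with a log2 change of -0.47 ± 0.16 (SE, adjusted p = 0.0429 in limma). In WT mice the change was -0.38 ± 0.16 (SE, adjusted p = 0.0972) and was not called. By genotype the EDL change was -0.16 and the soleus change -0.07.

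The Tie1 call in Ts1Cje mice lay close to the threshold. With slide as a block the change was -0.30 (adjusted p = 0.458), resting on 1 soleus array. Without single arrays the call was lost in 5 of 7 fits, those without EDL Ts1Cje replicate 1, 2 or 3 (adjusted p = 0.161, 0.0529 and 0.0802) and those without soleus Ts1Cje replicate 2 or 3 (0.104 and 0.112). It was also lost with normexp background correction (0.0769), with no filter on dim probes (0.0992) and with the Ts1Cje groups fitted alone (0.082).

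Tek, the angiopoietin receptor of endothelial cells, was measured near the 75th percentile, between -0.90 and 0.35. In soleus Ts1Cje the levels were 0.13, 0.17, -0.90 and -0.79, with replicates 1 and 2 above all EDL arrays and replicates 3 and 4 below them. The changes were 0.03 ± 0.29 (SE) in the EDL and -0.33 ± 0.25 (SE) in the soleus by genotype, and 0.07 in Ts1Cje and -0.28 in WT mice between EDL and soleus. Tek was not called. Whether the Tek or the Tie1 probe, given their shared bases shown above, binds the other transcript was not tested.

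Angpt1 encodes angiopoietin 1, the ligand that keeps TEK active in resting vessels. Angpt1 levels were -0.23, -0.17 and -0.25 in EDL Ts1Cje, 0.27, -0.36 and 0.27 in EDL WT, 2.20, 1.05, 1.29 and 1.34 in soleus Ts1Cje and 0.92, 1.24, 1.23 and 1.60 in soleus WT. The lowest soleus array stood above the highest EDL array in each genotype. In Ts1Cje mice 35.4% of all genes did not overlap between the muscles. Angpt1 fell 3.22-fold in EDL Ts1Cje against soleus Ts1Cje (log2 -1.69 ± 0.25, SE, adjusted p = 0.000306 in limma). In WT mice the EDL was 2.27-fold lower than the soleus (-1.18 ± 0.25, SE, adjusted p = 0.00359), and groups did not overlap, as for 38.9% of genes. With slide as a block the changes were -2.42 in Ts1Cje (adjusted p = 0.000225) and -2.16 in WT mice (0.00292). These values rest on soleus Ts1Cje replicate 1, the only soleus array of slide 1 and the highest of all arrays; without it the change in Ts1Cje mice was -1.44.

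By genotype Angpt1 was not called. The changes were -0.28 ± 0.27 (SE) in the EDL and 0.22 ± 0.23 (SE) in the soleus, and the soleus value became -0.02 within slide 2, without replicate 1 of soleus Ts1Cje. The difference between the muscles in the genotype effect was -0.50 ± 0.36 (SE, not called). Since Angpt1 comes from mural cells among others, the 10 pericyte and vascular smooth muscle markers are given beside it. The summed linear level of these markers, in multiples of the 75th percentile, was 182 to 206 in EDL Ts1Cje, 181 to 188 in EDL WT, 177 to 190 in soleus Ts1Cje and 147 to 196 in soleus WT. All 10 were measured. Among all genes 30% were called between the muscles in Ts1Cje and 29.8% in WT mice. Cspg4, the proteoglycan NG2, was called lower in the EDL in both genotypes (-0.90 in Ts1Cje and -0.73 in WT mice), and Abcc9, a channel subunit of pericytes, was called higher in the EDL of WT mice (0.50). The part of mural cells in the Angpt1 result was not tested.

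Vegfa encodes the principal growth factor of capillaries, and Vegfb a relative that acts through FLT1. On the brighter Vegfa probe, at chr17:46154387-46154446 (minus strand), levels were 3.69, 3.55 and 4.04 in EDL Ts1Cje, 4.13, 3.71 and 4.14 in EDL WT, 3.78, 4.63, 3.97 and 3.88 in soleus Ts1Cje and 4.14, 3.49, 3.90 and 3.67 in soleus WT. All groups overlapped. The genotype changes were -0.23 ± 0.23 (SE) in the EDL and 0.26 ± 0.20 (SE) in the soleus, and the changes between EDL and soleus were -0.30 in Ts1Cje and 0.19 in WT mice, none of them called.

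On the second kept Vegfa probe the level in soleus Ts1Cje was 1.86, 1.12, 1.43 and 2.31, against 1.82, 1.98, 2.13 and 1.56 in soleus WT. The EDL levels were 2.18, 1.72 and 2.62 in Ts1Cje and 2.01, 2.32 and 2.26 in WT. Between EDL and soleus this probe had changes of 0.49 (adjusted p = 0.191 over all probes in limma) in Ts1Cje and 0.33 in WT mice, so in Ts1Cje mice it went the other way from the first probe. Soleus Ts1Cje replicate 2 was the highest of all arrays on the first probe and the lowest on the second. Vegfb levels lay between 3.58 and 4.05 over the 14 arrays, and its changes, from -0.13 to 0.09 in the comparisons by genotype and by muscle, were not called.

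**Figure D3:**
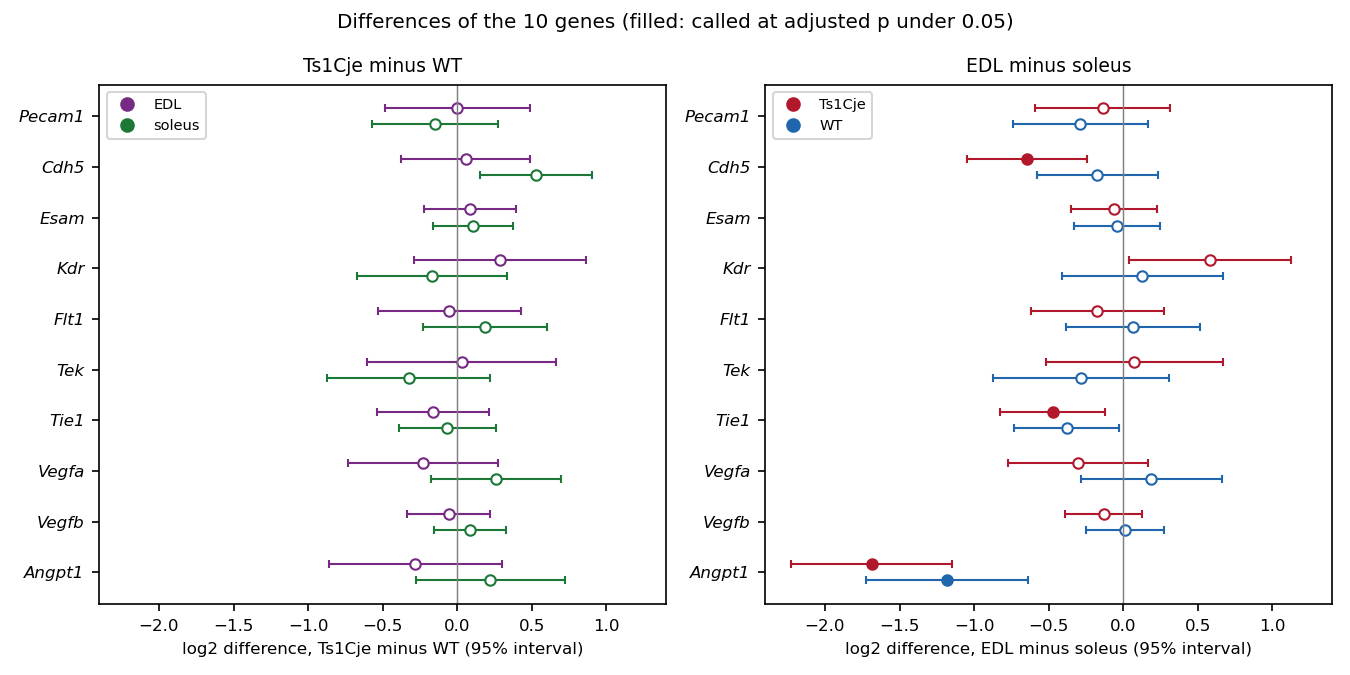
Log2 change of each of the 10 genes with its 95% interval. The left panel gives Ts1Cje minus WT in EDL (purple) and soleus (green), the right panel EDL minus soleus in Ts1Cje (red) and WT (blue); filled points were called, which are Angpt1 in both genotypes and Cdh5 and Tie1 in Ts1Cje mice.

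Other genes of the endothelium were compared from a list of 30 genes, all 30 measured, that holds transcription factors (Sox7, Sox17, Sox18), surface proteins (Eng, Emcn, Cd34) and enzymes (Nos3). By genotype 0 of 30 were called in either muscle, against 0.00706% of all genes in the EDL and 0.247% in the soleus. In the EDL 20 were higher and 10 lower in Ts1Cje, with a median of 0.08, against -0.00 over all genes. In the soleus 25 were higher and 5 lower, with a median of 0.17, against 0.07 over all genes. With quantile normalization or with slide as a block 21 of 30 were higher in soleus Ts1Cje. Most genes of the array were higher there too. Of 14163 genes these were 8213 with quantile normalization and 8630 with slide as a block. With the authors' table they were 8931, beside 25 of the 30. Their summed linear level was 281 to 311 in EDL Ts1Cje, 246 to 280 in EDL WT, 311 to 393.5 in soleus Ts1Cje and 274 to 317 in soleus WT. In these whole-muscle samples, fewer cells of a type and less RNA per cell cannot be told apart.

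Between the muscles, 24 of these 30 genes were lower in the EDL of Ts1Cje mice (median -0.25, against 0.01 over all genes) and 25 in WT mice (-0.16, against 0.07). In Ts1Cje mice 1 of the 30 was called lower and 1 higher in the EDL, against 12.4% and 17.5% of all genes. In WT mice 0 of the 30 were called lower and 1 higher, against 9.77% and 20.1% of all genes. The list thus held a smaller share of called genes than the array as a whole. Ecscr, an endothelial chemotaxis regulator, was lower in the EDL of Ts1Cje mice at -0.59 (adjusted p = 0.0367 in limma), a call that was lost with slide as a block (-0.71, adjusted p = 0.139) and held in 3 of 7 fits without single arrays. Tmem100, an endothelial membrane protein downstream of BMP signalling, went the other way and was higher in the EDL, 2.15-fold in Ts1Cje (adjusted p = 0.033) and 2.02-fold in WT mice (0.0474). The Tmem100 call was lost without single arrays in 4 of 7 fits in Ts1Cje and 5 of 7 in WT mice.

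Of 20 other genes of VEGF, angiopoietin and Notch signalling, 19 were measured; Flt4, the receptor of VEGFC and VEGFD, was on the array but was not kept. By genotype 0 of 19 were called in the EDL (12 higher, median 0.01) and 0 in the soleus (16 higher, median 0.21). Between EDL and soleus 6 of 19 fell in Ts1Cje and 3 in WT mice, and 0 rose, against 12.4% and 9.77% of all genes called lower. The medians were -0.42 in Ts1Cje and -0.19 in WT mice, against 0.01 and 0.07 over all genes. With slide as a block 2 were called lower in Ts1Cje and 1 in WT mice. Of all 14163 genes, 809 and 385 were called lower in that fit.

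Vegfd, a ligand of the lymphatic and blood vessel VEGF receptors, differed most clearly. Vegfd levels were -0.69, -0.17 and -0.65 in EDL Ts1Cje, -0.55, -0.81 and -0.94 in EDL WT, 1.06, 1.38, 1.51 and 1.21 in soleus Ts1Cje and 1.21, 0.93, 1.07 and 1.15 in soleus WT. All 6 EDL arrays lay below 0 and all 8 soleus arrays at 0.93 or above. Within a genotype, 35.4% (Ts1Cje) and 38.9% (WT) of all genes did not overlap between the muscles. The changes were -1.79 in Ts1Cje (adjusted p = 3.98e-06 in limma) and -1.86 ± 0.15 (SE) in WT mice (4.42e-06). They stayed called with slide as a block (-1.56 and -1.55), values that rest on soleus Ts1Cje replicate 1, the only soleus array of slide 1. In WT mice muscle and slide coincide fully, so WT arrays alone cannot separate them.

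Rcan2, a regulator of calcineurin, which acts downstream of VEGF receptors, was at 3.17, 2.95 and 3.86 in EDL Ts1Cje, 3.51, 3.10 and 3.77 in EDL WT, 4.68, 5.26, 5.27 and 5.16 in soleus Ts1Cje and 4.78, 5.14, 4.65 and 4.66 in soleus WT. It was lower in the EDL, at -1.76 in Ts1Cje (adjusted p = 0.000124 in limma) and -1.35 in WT mice (0.000958). Fgf1, a growth factor that can stimulate endothelial cells, was at 3.58, 2.88 and 3.65 in EDL Ts1Cje, 3.69, 3.37 and 3.45 in EDL WT, 4.32, 4.74, 4.12 and 4.60 in soleus Ts1Cje and 4.56, 4.15, 4.17 and 4.60 in soleus WT. Its changes were -1.07 in Ts1Cje (adjusted p = 0.00193) and -0.87 in WT mice (0.00705). With slide as a block the calls of Fgf1 in both genotypes (-0.95 and -0.70) and of Rcan2 in WT mice (-0.80) were lost.

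Thbs1, the gene of the angiogenesis inhibitor thrombospondin 1, was lower in the EDL of Ts1Cje mice at -1.64 (adjusted p = 0.0279), a call that held in 2 of 7 fits without single arrays and was lost with slide as a block (-1.45). The other called genes of this list in Ts1Cje mice were Cxcl12 (-0.68, adjusted p = 0.0336 in limma) and Ephb4 (-0.43, 0.0444), which were named after their values were seen; Cxcl12 is a chemokine of stromal cells and Ephb4 a receptor of venous endothelium. Both of these calls were also lost with slide as a block, with no filter on dim probes and with the mean of kept probes. That of Ephb4 was lost with the Ts1Cje groups alone as well. Without single arrays the call held in 2 of 7 fits for Cxcl12 and in 3 of 7 for Ephb4.

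Hypoxia and PGC-1 signalling set Vegfa transcription in muscle, and 12 of 12 listed genes of these pathways were measured. By genotype 0 of 12 were called in either muscle, with medians of 0.01 in the EDL and 0.09 in the soleus. Among all genes 0.00706% and 0.247% were called, with medians of -0.00 and 0.07. Between EDL and soleus, Hif1an, the asparagine hydroxylase that inhibits HIF, rose by 1.05 in Ts1Cje (adjusted p = 6.01e-05 in limma) and by 0.89 in WT mice (0.000231). Its levels were 1.70 to 1.93 in EDL Ts1Cje, 1.60 to 1.86 in EDL WT, 0.53 to 0.96 in soleus Ts1Cje and 0.74 to 0.99 in soleus WT, without overlap between muscles. The same lack of overlap was seen for 35.4% of all genes in Ts1Cje and 38.9% in WT mice. Bnip3, a hypoxia-induced mitophagy receptor, went the other way, at -0.96 in Ts1Cje (0.000107) and -0.75 in WT mice (0.000716).

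Egln3, a HIF-induced prolyl hydroxylase that marks HIF for degradation, was lower in the EDL, at -0.80 in Ts1Cje (adjusted p = 0.0238) and -0.90 in WT mice (0.0131). With slide as a block Egln3 was not called in either genotype (-0.26 and -0.17), and Hif1an and Bnip3 were called in Ts1Cje mice (0.88 and -0.80) but not in WT mice (0.67 and -0.54). Esrra, the nuclear receptor ERR alpha that works with PGC-1, was lower in the EDL of Ts1Cje mice at -0.39 (adjusted p = 0.04) and lost its call with slide as a block. Its call was also lost with no filter on dim probes and with the Ts1Cje groups alone, and held in 3 of 7 fits without single arrays. The medians of the 12 genes were -0.21 in Ts1Cje and -0.01 in WT mice, and with slide as a block they turned to 0.11 and 0.27, with 7 of 12 genes higher in the EDL in each genotype.

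On the segment of chromosome 16 present in an extra copy in Ts1Cje mice, 5 genes with known roles in vessels were listed. The list is not a count of all vascular genes of the segment. Erg and Ets2 are transcription factors of the ETS family, Erg being a defining factor of endothelial cells, Rcan1 inhibits calcineurin and is induced by VEGF, Dyrk1a is a kinase that also limits calcineurin signalling, and Runx1 is a transcription factor of haemogenic endothelium and blood. All 5 had higher means in Ts1Cje than in WT in both muscles, with median changes of 0.59 in the EDL and 0.64 in the soleus, against -0.00 and 0.07 over all genes.

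Runx1 levels were -2.11, -2.33 and -1.83 in EDL Ts1Cje, -3.01, -2.62 and -2.80 in EDL WT, -1.47, -1.74, -1.63 and -1.51 in soleus Ts1Cje and -2.96, -2.36, -2.33 and -2.94 in soleus WT. The genotypes did not overlap in either muscle, as for 5.6% of all genes in the EDL and 8.4% in the soleus. Runx1 was dim, and its WT levels lay about in the range of the Flt1 probe that was not kept (-3.95 to -2.33). Runx1 rose by 1.06 ± 0.17 (SE) in the soleus (adjusted p = 0.0219 in limma) and by 0.89 ± 0.13 (SE) as the mean of both muscles (0.00759), while the EDL change of 0.72 ± 0.19 (SE) was not called (0.919). With normexp background correction the soleus change was 0.26 (adjusted p = 0.451) and with the mean of its kept probes 0.67 (0.308), and its soleus call held in 2 of 8 fits without single arrays. Of 9 other settings the soleus call held in 2, and it was also lost with no filter on dim probes (0.0951), with the soleus groups alone (0.0904), with slide as a block (0.0804), within slide 2 (0.155) and with the replicate block (0.162). The call for the mean was lost with normexp (0.21, adjusted p = 0.741), with the mean of kept probes (0.56, 0.288) and with the replicate block (0.11).

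Dyrk1a was at 1.91, 1.24 and 1.96 in EDL Ts1Cje, 0.77, 1.27 and 0.61 in EDL WT, 1.44, 1.83, 1.80 and 1.84 in soleus Ts1Cje and 0.83, 1.20, 0.90 and 0.43 in soleus WT. It rose by 0.85 ± 0.16 (SE) as the mean of both muscles (adjusted p = 0.0431 in limma), a call that held in 4 of 14 fits without single arrays. Ets2 had changes of 0.47 in both muscles, Erg of 0.37 and 0.34 and Rcan1 of 0.59 ± 0.37 and 0.64 ± 0.32 (SE), and these 3 genes were not called by genotype. Against the soleus, Rcan1 was lower in the EDL, at -1.15 in Ts1Cje (adjusted p = 0.0242 in limma) and -1.10 in WT mice (0.0293), and Erg in WT mice, at -0.42 (0.0481). These calls were lost with slide as a block, and that of Erg in each of 7 fits without single arrays. The Ets2 arrays of Ts1Cje, at 3.77 to 3.92 in the EDL, lay above those of EDL WT, at 3.27 to 3.52. In that comparison 5.6% of all genes did not overlap.

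**Figure D4:**
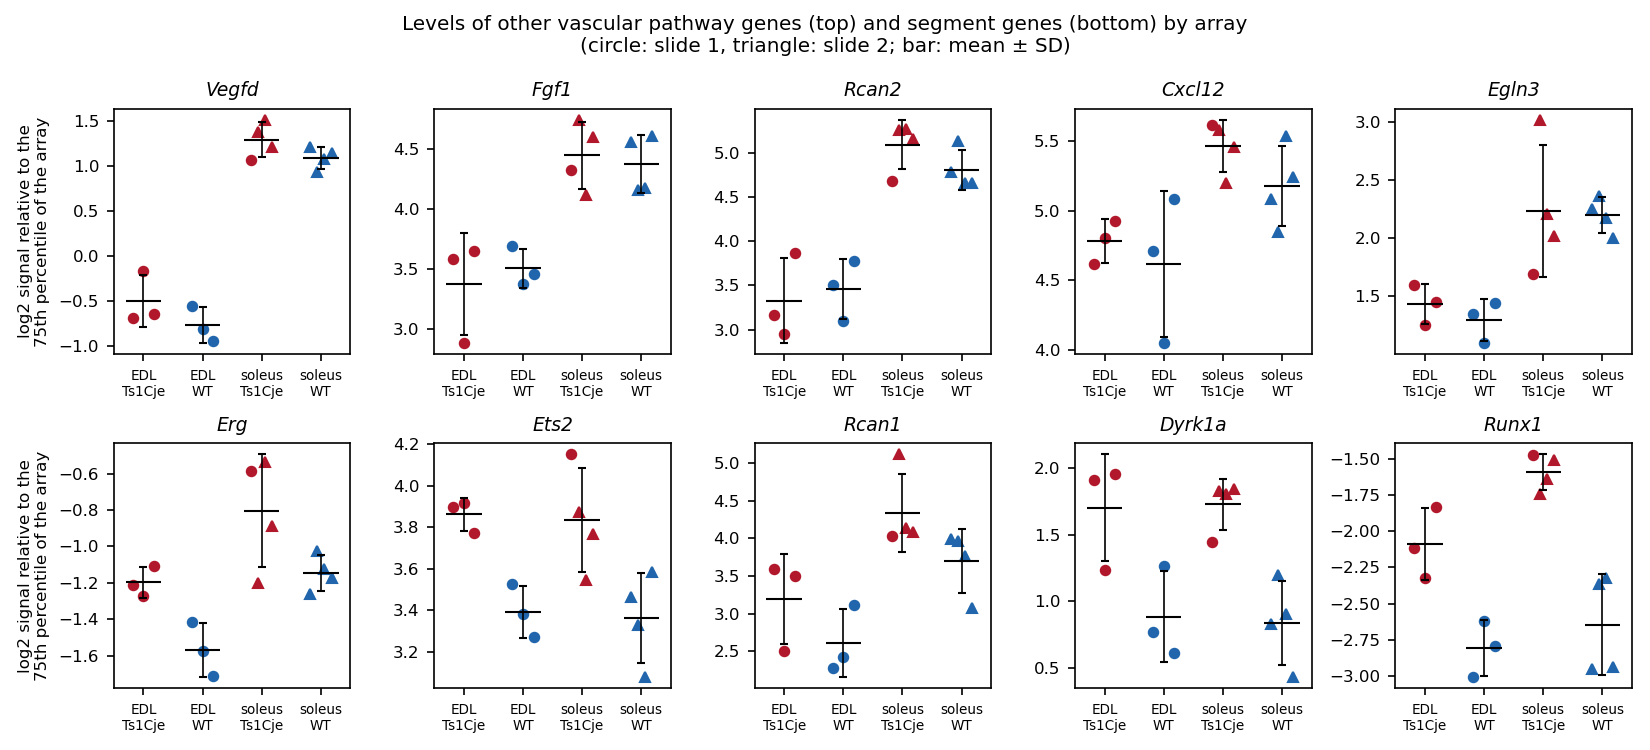
Levels on every array (log2, relative to the 75th percentile) of 5 genes of vessel signalling and hypoxia (Vegfd, Fgf1, Rcan2, Cxcl12 and Egln3, upper row) and of 5 genes of the segment present in an extra copy (Erg, Ets2, Rcan1, Dyrk1a and Runx1, lower row), by group. Circles are slide 1 and triangles slide 2, with bars for the mean ± SD. Vegfd, Fgf1, Rcan2 and Egln3 are lower on all EDL arrays than on all soleus arrays of the same genotype, Cxcl12 overlaps in WT mice, and the lower genes have higher means in Ts1Cje in both muscles. Of all genes, 35.4% did not overlap between the muscles in Ts1Cje and 38.9% in WT mice.

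Since ERG and ETS2 bind motifs with a GGAA core, and the endothelial genes among the 10 are known as ETS targets, the core was counted in the 250 bases before the start of each gene (RefSeq, GRCm38.p6, a build other than that of the probes). The core was searched as GGAA and as TTCC, its reverse complement, which covers both strands. It was present in 93.4% of 32851 such windows, with a median of 3 matches. Sequences were found for 6 of the 10 genes. Tie1 had 7 matches (3.82% of windows had at least as many), Kdr and Flt1 had 4 each (33.4%), and Tek had 2 (76.8%). Of the growth factors, Vegfa had windows with 6 (8.69%) and 2 (76.8%) matches, and Vegfb had 1 (93.4%). The windows of the TIE receptor genes are printed because they hold the most and the fewest matches among the receptors, with the core in capitals. A match is a run of letters, not a binding site, and neither gene was called by genotype. The Tek window is chr4:94739039-94739288 (plus strand) and the Tie1 window chr4:118489850-118490099 (minus strand), both written in the direction of the gene.
Tek window: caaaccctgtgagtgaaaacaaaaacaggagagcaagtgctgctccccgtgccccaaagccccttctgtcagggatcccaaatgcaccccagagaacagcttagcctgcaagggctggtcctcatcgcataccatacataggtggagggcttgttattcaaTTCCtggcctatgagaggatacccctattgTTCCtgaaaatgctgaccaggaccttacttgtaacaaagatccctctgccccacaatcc
Tie1 window: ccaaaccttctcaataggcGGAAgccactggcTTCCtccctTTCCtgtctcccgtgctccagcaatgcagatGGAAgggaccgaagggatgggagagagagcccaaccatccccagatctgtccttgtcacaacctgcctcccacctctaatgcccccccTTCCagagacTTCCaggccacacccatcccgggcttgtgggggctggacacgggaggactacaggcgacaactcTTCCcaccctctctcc

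The other cell types of the muscle were checked with marker lists. Among all genes, 12.4% in Ts1Cje and 9.77% in WT mice were called lower in the EDL than in the soleus. Those called higher were 17.5% and 20.1%. Between the muscles, 9 of 9 slow fibre genes fell in the EDL in both genotypes, with median changes of -6.34 in Ts1Cje and -5.36 in WT mice. All 9 fast fibre genes had higher means in the EDL, and 8 of them were called in each genotype (medians 1.65 in Ts1Cje and 1.53 in WT mice). All 5 measured adipocyte markers had lower means in the EDL in both genotypes, and 5 were called in Ts1Cje and 1 in WT mice. Their summed linear level was 72.1 to 87.9 in EDL Ts1Cje, 70.6 to 118 in EDL WT, 135 to 226 in soleus Ts1Cje and 103 to 173 in soleus WT. All 7 measured macrophage markers had lower means in the EDL, with calls for 2 of 7 genes in Ts1Cje and 3 of 7 in WT mice, and their summed level was 19.5 to 21.4 in EDL Ts1Cje, 15.0 to 17.6 in EDL WT, 23.3 to 32.9 in soleus Ts1Cje and 21.5 to 24.8 in soleus WT.

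Of the lymphatic endothelium markers, 3 were measured, and Prox1, which slow fibres also express, and Lyve1, which macrophages share, were lower in the EDL in both genotypes (Prox1 -2.68 in Ts1Cje and -2.62 in WT mice, Lyve1 -1.51 and -0.93). By genotype in the soleus, 3 of 9 fast fibre genes fell in Ts1Cje and 0 genes of the slow fibre, adipocyte, macrophage, lymphatic, pericyte, fibroblast and Schwann cell lists were called. Among all genes 0.0706% were called lower and 0.177% higher in that comparison. In the EDL 0 genes of these lists were called by genotype, against 0.00706% of all genes. All 9 slow fibre genes and 4 of 5 adipocyte markers had lower means in EDL Ts1Cje (medians -0.65 and -0.52). Higher means were seen there for 6 of 7 macrophage markers (0.19) and 6 of 9 fast fibre genes (0.03). What this means for the genotype comparison in the EDL was not tested. The part of these cells in the differences of Angpt1, Cdh5, Tie1 and Vegfd between the muscles was not tested.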

How the data were processed

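RNA of each muscle was labelled with Cy3 (25 ng per sample, per the labels) and hybridised to 1 array. Per the file headers the authors extracted spots with Agilent Feature Extraction 11.5.1.1, while the submitters' processing notes name version 9.1. The scanner files deposited by the authors give gProcessedSignal, an intensity that is background-subtracted and not normalized between arrays, as well as median spot and background intensities and, among their other columns, flags for outlier, saturated and well-above-background spots, all deposited by the authors. The authors' deposited table holds log2 values, scaled to each array's 75th percentile and centred on each probe's median, which matched values recomputed from the scanner files (lowest correlation 0.9999).

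Each array held 62976 spots, 3671 of them controls, which were left out. The 75th percentile of the signal was 62.4 to 144 intensity units over the arrays, 0 probes were saturated, and precision is limited by how many arrays there are. Spots of a probe were averaged, and the log2 ratio of gProcessedSignal to the array's 75th percentile was used. Symbols were updated through RefSeq (GRCm38.p6), and 31940 of 33822 probes with a symbol were found there. Kept probes (25182) were well above background throughout 1 or more groups. R 4.3.3 and limma 3.58.1 (lmFit, eBayes) fitted 1 mean per group to 14 arrays (residual degrees of freedom 10, prior 2.81), two-sided, adjusted by Benjamini-Hochberg. The code was tested on simulated data.

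Members and gene lists were chosen with earlier results of these data known. Named were the 10 genes, up to 4 called genes of smallest p per vascular list and comparison, and the 5 listed vascular genes of the extra segment. Exceptions are stated. Alternatives were normexp background correction (offset 50), quantile normalization, the authors' table, no filter on dim probes, the mean of kept probes, only the groups compared, slide as a block, 1 slide alone, a replicate block and omission of each array. Running them on genes of the other lists was added after seeing the data. Same-numbered EDL samples, littermate pairs in the design text, deviated together (r of 0.40, 0.12 and 0.31), while r was -0.29 to 0.01 for same-numbered soleus samples.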

Additional observations from a re-analysis of the deposited data

How the results depend on the processing

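Few arrays and the near overlap of slide and muscle limit these results, and dim signal left Flt4 and a Flt1 probe unmeasured. The fit with slide as a block rests on soleus Ts1Cje replicate 1, and comparisons within 1 slide were not possible for WT muscles, for the difference and for the mean over muscles. The count of members called in Ts1Cje between EDL and soleus fell to 1 with no filter, with slide as a block and within slide 1, against 3 in the report, was 2 with normexp and with the Ts1Cje groups alone, and lay between 1 and 4 without single arrays. The calls of Angpt1 held in both genotypes under all alternatives run apart from slide 1 alone, which has 1 soleus array and was not read as a test (adjusted p up to 0.00327 in Ts1Cje and 0.0214 in WT). Cdh5 between genotypes in the soleus stayed uncalled (adjusted p 0.199 to 0.588). Over members and named list genes, 707 of 805 values under other settings and 689 of 812 without single arrays kept their direction and side of the threshold. Many of these values belong to results uncalled in the report, which count as kept whenever their sign held and they stayed uncalled. The authors' table also nearly repeats the main values, so these totals say little about how firm the calls are.

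Members whose direction turned were uncalled in the report, and the cause was not tested. Between genotypes in the EDL, normexp gave Pecam1 -0.0317 and Tek -0.0535, and quantile normalization gave Pecam1 -0.00411. In the soleus, Angpt1 was -0.0221 with slide as a block and -0.0221 within slide 2. For the difference, Esam was 0.0449 with quantile normalization and 0.00608 with slide. For the mean, the averaged probes gave Kdr -0.00823 and Vegfa -0.0448, slide Kdr -0.0242, quantile normalization Vegfa -0.0229 and Vegfb -0.0301, and normexp Angpt1 0.0229. In WT muscles, slide gave Cdh5 0.17 and Kdr -0.53, averaged probes Kdr -0.0809, normexp Kdr -0.0177, Flt1 -0.0465 and Vegfb -0.0589, and quantile normalization Kdr -0.0515, Flt1 -0.15, Vegfa -0.00792 and Vegfb -0.18. In Ts1Cje muscles, averaged probes gave Kdr -0.0244 and Vegfa 0.0950, and slide as a block or slide 1 alone gave Flt1 0.18, Tek -0.40 and Vegfb 0.17.

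Without single arrays, ranges that crossed 0 in the EDL were -0.15 to 0.12 (Pecam1), -0.10 to 0.21 (Cdh5), -0.0142 to 0.21 (Esam), -0.22 to 0.0879 (Flt1), -0.0880 to 0.18 (Tek) and -0.14 to 0.0358 (Vegfb). In the soleus they were -0.33 to 0.0302 (Kdr), -0.14 to 0.0349 (Tie1) and -0.0221 to 0.36 (Angpt1), for the difference -0.00401 to 0.28 (Pecam1) and -0.12 to 0.11 (Esam), and for the mean -0.0726 to 0.17 (Kdr), -0.0177 to 0.14 (Flt1), -0.0781 to 0.0725 (Vegfa), -0.0277 to 0.0652 (Vegfb) and -0.15 to 0.0420 (Angpt1). Between muscles they were -0.11 to 0.25 (Tek) in Ts1Cje and -0.17 to 0.0574 (Esam), -0.00862 to 0.22 (Kdr), -0.0702 to 0.24 (Flt1) and -0.0120 to 0.0370 (Vegfb) in WT.

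The replicate block changed no call of the members (3 called between EDL and soleus in Ts1Cje mice and 1 in WT mice) and moved the genes called in the soleus to 7 and for the mean to 5; Runx1 was then uncalled (adjusted p = 0.162 and 0.11), as was Dyrk1a for the mean. All genes called in the soleus, 35 in the report, numbered 15 with normexp, 6 with no filter, 23 with averaged probes, 4 with the soleus groups alone, 18 with slide, 1 within slide 2 and 10 to 28 without single arrays. In the EDL, 1 in the report, they numbered 3 with quantile normalization and 2 with no filter, and for the mean, 41 in the report, 22 with normexp and 21 with no filter. Between muscles, 4244 in Ts1Cje became 2070 with slide and 507 within slide 1, and 4224 in WT became 2280 with normexp and 1368 with slide.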

Other observations

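Among Schwann cell and red blood cell markers, 1 gene of each list was called between EDL and soleus. Of all genes, 30% were called between the muscles in Ts1Cje and 29.8% in WT mice. Of the 5 Schwann cell markers, 3 had lower and 2 higher means in the EDL in each genotype, and Mbp, a myelin protein, was called lower in the EDL, at -1.11 in Ts1Cje and -1.54 in WT mice. Of the 4 measured red blood cell markers, Slc4a1, an anion exchanger, was called higher in the EDL, by 1.07 in Ts1Cje and 1.22 in WT mice, while the other 3 had lower means in the EDL in Ts1Cje mice (median of the list -0.37) and higher means in WT mice (0.35). Of the 7 fibroblast markers 0 were called between the muscles in either genotype. The complement genes C1qa, C1qb and C1qc, made by macrophages, were the 3 macrophage markers that fell in WT mice.

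The 7 endothelial genes among the 10 (Pecam1, Cdh5, Esam, Kdr, Flt1, Tek and Tie1) were also compared with each other across arrays once group means were removed. Of their 21 pairs over the 14 arrays, 11 had a Pearson r above 0, the median r was 0.00, and r ranged from -0.70 to 0.75; Spearman rho ranged from -0.54 to 0.78. With 20736 within-group permutations, 3 pairs had an unadjusted p under 0.05 and 0 an adjusted one. The genes whose deviations were most like the mean deviation of these 7 were Bmp4 (r = 0.95), Trp53inp1 (0.93), Clk4 (0.92), Man2a1 (0.92) and Coro2b (0.92), given as a description over 14 arrays that share slides. They were picked as the highest r among all genes tested, so the median r over all genes, -0.02, is no yardstick for them. With 0 pairs passing the adjusted test, the mean of the 7 is not shown to be a shared profile.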
